A study of Homo sapiens with 10 samples.

Results

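The 10 genes described here belong to the YAP-TEAD pathway and to the CCN family, and they were followed in HeyA8, an established human ovarian cancer cell line. They are CCN1, CCN2, ANKRD1, AMOTL2, AJUBA, LATS2, YAP1, WWTR1 (which encodes TAZ), TEAD1 and TEAD4, taken by symbol from 58395 genes counted, and all 10 passed the filter on low counts. The genes were chosen by their counts across these groups, together with their place in the pathway, so their own values are given as a description without a test. All cells were parental HeyA8 that received a short interfering duplex at 10 nM with a lipid reagent, and RNA was taken 24 or 48 h later. There were 5 groups of 2 libraries, with siNT1 (a non-targeting duplex) and siGGGGGC each sampled at both times and siGGCAGU sampled at 48 h alone. The passenger strand was 2′-O-methylated in siNT1, siGGGGGC and siGGCAGU alike. siGGGGGC and siGGCAGU are named for positions 2 to 7 of the guide strand, the seed that pairs with messenger RNA. Both libraries of a group came from duplicate wells of this 1 cell line, and p-values therefore measure a spread that may be technical.

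YAP1 and TAZ are coactivators that do not bind DNA themselves and act on genes by joining a TEAD factor. In the Hippo pathway the kinases STK3 and STK4 (MST) activate LATS1 and LATS2, which phosphorylate YAP1 and TAZ and keep them in the cytoplasm. CCN1, CCN2 and ANKRD1 are widely used readouts of YAP-TEAD activity, and AMOTL2, AJUBA and LATS2 are both targets of the pathway and regulators of it.

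Total counts ranged from 19781445 to 42428986 per library, of which the small RNA genes RN7SL2 and SNORD3A took 19.83% to 31.96%. Levels are given as CPM, the normalised read count scaled to a common library size with TMM factors, and as RPKM, the CPM per kilobase of annotated exon, where genes are compared with each other. One library stood apart, as siNT1 replicate 1 at 24 h had counts in 33365 genes and the other libraries in 25238 to 28703. The epithelial keratin KRT18 had 92.8 and 93.8 CPM with siGGGGGC at 48 h and 237.8 to 303 CPM in the other libraries. The Müllerian factor PAX8 had 3.35 to 10.5 CPM with siGGGGGC and 18.4 to 35.0 CPM without it. Of the 5 carcinoma markers tested, KRT8, KRT18, PAX8 and WT1 were called lower than with siNT1 (edgeR adjusted p below 0.05 and a log2 fold change beyond 1) with siGGGGGC at 48 h, and EPCAM and WT1 with siGGCAGU. Others went the other way under the fold cutoff. With siGGCAGU, KRT8 (log2 fold change 0.46, adjusted p = 0.0109, edgeR) and PAX8 (0.32, adjusted p = 0.0298, edgeR) were higher. With siGGGGGC at 24 h, KRT8 was higher (0.44, adjusted p = 0.0376, edgeR) and PAX8 lower (-0.92, adjusted p = 0.000248, edgeR). Of the mesenchymal markers, FN1 at 48 h had 771 and 583 CPM with siNT1 and 1067 and 971 CPM with siGGCAGU. With siGGGGGC it had 48.8 and 54.0 CPM at 48 h. At 24 h it had 68.8 and 70.4 CPM with siGGGGGC and 191 and 191 CPM with siNT1. VIM was lower than with siNT1 at 48 h with siGGCAGU (log2 fold change -0.45, adjusted p = 0.000805, edgeR) and with siGGGGGC (-0.89, adjusted p = 1.22e-06, edgeR). CDH2 was lower with siGGGGGC at 48 h (-0.49, adjusted p = 0.000257, edgeR) and near siNT1 with siGGCAGU (-0.08, adjusted p = 0.445, edgeR). The ovarian cancer antigen MUC16 was near 0 with at most 2 counts in all libraries but siNT1 replicate 1 at 24 h, which had 26 counts. PTPRC, CD3E and CD68 (immune) and PECAM1 and CDH5 (endothelial) did not exceed 28 counts in any library. The part of these differences in the results was not tested, and in bulk RNA fewer cells of a kind and less RNA per cell cannot be told apart.

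To ask which of the 10 transcripts carry letters that the duplexes could pair with, their longest annotated 3′ untranslated regions (UTRs) were searched for the reverse complement of each seed. Examples of the natural microRNAs with these seeds are shown first, with positions 2 to 7 in capitals, since siGGCAGU carries the seed of the miR-34a family.
hsa-miR-34a-5p: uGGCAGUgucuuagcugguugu
hsa-miR-449a: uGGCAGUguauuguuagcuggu
hsa-miR-1237-5p: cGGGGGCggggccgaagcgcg

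ACTGCC, the match to siGGCAGU, was found in 4 of the 10 genes (CCN1, ANKRD1, AMOTL2 and LATS2, 1 copy each), and GCCCCC, the match to siGGGGGC, in 3 (AMOTL2 and TEAD1 with 2 copies each and TEAD4 with 1). Among 19248 genes with an annotated 3′ UTR, 32.7% held ACTGCC and 30.2% held GCCCCC. The match to siNT1, CGACTA, was found in YAP1 and in 2.74% of all genes. No copy of ACTGCC or GCCCCC was found in these UTRs of CCN2, AJUBA, YAP1 or WWTR1. The 5 sites below are examples from genes whose levels lay outside those of siNT1 with at least 1 siRNA. The sites of TEAD1 and LATS2 and the other GCCCCC copy of AMOTL2 also met this and are not shown. Positions are in hg38 and letters on the strand of the gene, with the match in capitals. A match is a description of the letters and is no evidence of pairing.
AMOTL2, ACTGCC, chr3:134357198-134357203, minus strand: cttcagttcctcACTGCCttcttgggatac
AMOTL2, GCCCCC, chr3:134356717-134356722, minus strand: gacatctgccatGCCCCCaggtgggcttcg
CCN1, ACTGCC, chr1:85583199-85583204, plus strand: aggtatttcgaaACTGCCaagggtgctggt
ANKRD1, ACTGCC, chr10:90912647-90912652, minus strand: gtttatttatttACTGCCacgctactgata
TEAD4, GCCCCC, chr12:3040556-3040561, plus strand: cctgcaggggcaGCCCCCtgaagtgccaag

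The core letters that TEAD factors recognise, CATTCC, were looked for on both strands (where the other strand reads GGAATG) in the RefSeq promoter windows of GRCh38.p14, 250 bases before to 50 bases after a start. Of the 7 genes with a window, 6 held the letters (AJUBA, AMOTL2, ANKRD1, CCN2, LATS2 and YAP1), which is 6 of their 10 windows, and of 35116 windows of all genes 14.0% did. CCN2 held 3 copies within 169 bases of its start and ANKRD1 held 2. A longer form that contains this core, ACATTCC, was searched on both strands as well and was found in the windows of AMOTL2, CCN2 and YAP1 and in 3.46% of all windows. The copies of CCN2, and the single copy of AMOTL2, are shown on the strand of the gene with the letters in capitals, because these genes had the largest log2 fold changes in either direction.
CCN2, chr6:131951462-131951467: ggaggaatgcgaGGAATGtccctgtttgtg
CCN2, chr6:131951471-131951476: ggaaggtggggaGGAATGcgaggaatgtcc
CCN2, chr6:131951536-131951541: ttttcagacggaGGAATGctgagtgtcaag
AMOTL2, chr3:134374511-134374516: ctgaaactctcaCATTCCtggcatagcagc

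The 2 CCN genes among the readouts were both higher with siGGGGGC at 24 h and went in opposite directions with siGGCAGU at 48 h. CCN2 differed most from siNT1 of all 10 genes. CCN2 (ENSG00000118523, hg38 chromosome 6, 131948176 to 131951372), a secreted matricellular protein also known as CTGF, had 63.2 and 60.4 CPM with siNT1 and 180.3 and 165 CPM with siGGGGGC at 24 h. At 48 h it had 119 and 79.7 CPM with siNT1, 304 and 263 CPM with siGGCAGU, and 488 and 445 CPM with siGGGGGC. The 5 groups did not overlap, and their order from low to high was siNT1 at 24 h, siNT1 at 48 h, siGGGGGC at 24 h, siGGCAGU at 48 h and siGGGGGC at 48 h. The level with siGGGGGC was 2.79-fold that of siNT1 at 24 h (log2 fold change 1.48, standard error 0.146) and 4.71-fold at 48 h (2.24, standard error 0.146). With siGGCAGU it was 2.86-fold (log2 fold change 1.52, standard error 0.143), and siGGGGGC lay above siGGCAGU by a log2 difference of 0.72 (standard error 0.14). Both comparisons with siNT1 at 48 h used the same control libraries, whose replicates differed for CCN2. Without siNT1 replicate 1 the log2 fold changes of CCN2 with siGGGGGC and siGGCAGU were 2.54 and 1.82, and without siNT1 replicate 2 they were 1.97 and 1.25.

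CCN1 (ENSG00000142871, chromosome 1, 85580761 to 85584589), the matricellular protein also known as CYR61, behaved otherwise. At 24 h it had 429 and 432 CPM with siNT1 and 649.9 and 588 CPM with siGGGGGC. The libraries of 48 h had 476 and 388 CPM with siNT1, 248 and 236 CPM with siGGCAGU, and 439.7 and 472 CPM with siGGGGGC. The siGGCAGU libraries were the lowest and the siGGGGGC libraries of 24 h the highest, while siNT1 at 48 h overlapped siNT1 at 24 h and siGGGGGC at 48 h, which did not overlap each other. The log2 fold change against siNT1 was 0.52 with siGGGGGC at 24 h (standard error 0.104), 0.08 with siGGGGGC at 48 h (standard error 0.103) and -0.84 with siGGCAGU at 48 h (standard error 0.104). The value of siGGGGGC at 48 h changed sign in 2 of 17 alternative analyses. siGGGGGC lay above siGGCAGU at 48 h by 0.91 (standard error 0.105).

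Per length, CCN1 exceeded CCN2 in the siNT1 libraries, and the order was turned in both other groups at 48 h. The ratio of CCN1 to CCN2 in RPKM was 4.29 and 4.52 with siNT1 at 24 h, 2.28 and 2.26 with siGGGGGC at 24 h, and 2.54 and 3.08 with siNT1 at 48 h. It was 0.516 and 0.566 with siGGCAGU and 0.57 and 0.67 with siGGGGGC at 48 h. The ratios with siGGCAGU and siGGGGGC were close, but the levels behind them were not, since CCN1 and CCN2 together came to 197 and 176 RPKM with siGGCAGU and to 328 and 318 RPKM with siGGGGGC.

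**Figure D1:**
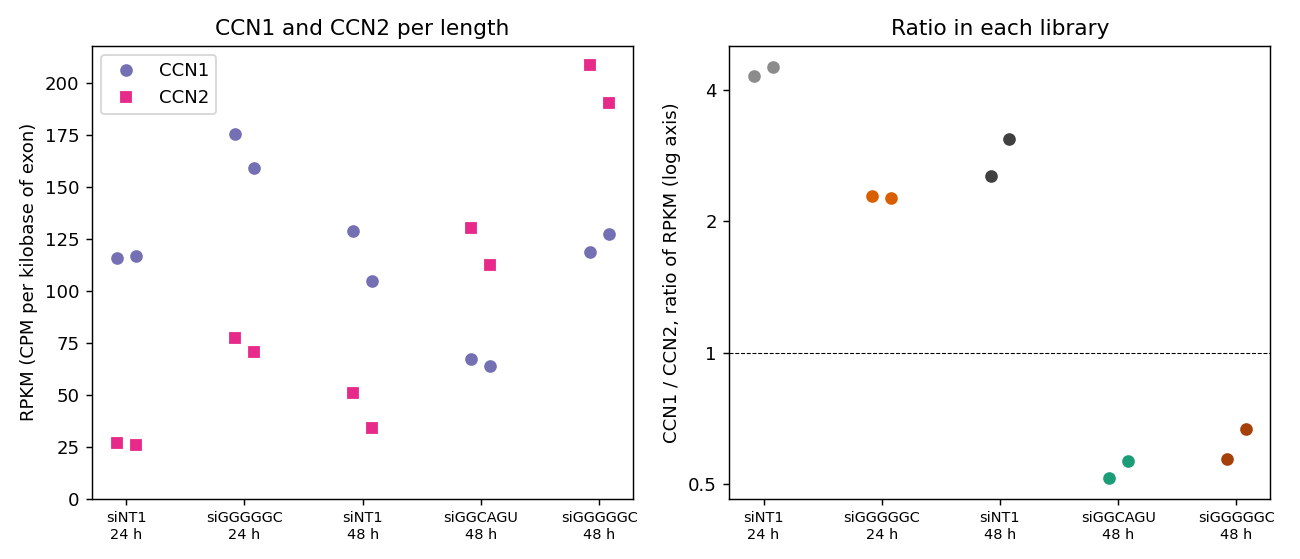
The left panel plots CCN1 (circles) and CCN2 (squares) in RPKM for each of the 10 libraries, and the right panel the ratio of CCN1 to CCN2 in each library on a log axis, with a dashed line at 1. CCN1 lies above CCN2 in the 6 libraries of siNT1 and of siGGGGGC at 24 h (ratios 2.26 to 4.52) and below it in the other 4 (0.516 to 0.67).

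ANKRD1 (ENSG00000148677, chromosome 10, 90912096 to 90921087), an ankyrin repeat protein of muscle that is a YAP-TEAD target in many cells, was low throughout. At 24 h it had 2.89 and 2.92 CPM with siNT1 and 5.00 and 5.34 CPM with siGGGGGC. At 48 h it had 4.89 and 4.34 CPM with siNT1, 9.16 and 8.07 CPM with siGGCAGU, and 9.03 and 8.21 CPM with siGGGGGC. Each siRNA group lay above siNT1 of its time, and at 48 h the siGGCAGU and siGGGGGC libraries overlapped. The log2 fold changes against siNT1 were 0.83 with siGGGGGC at 24 h (standard error 0.171), 0.90 with siGGGGGC at 48 h (standard error 0.137) and 0.90 with siGGCAGU (standard error 0.136). The difference between both siRNAs at 48 h was 0.0084, and its sign changed in 5 of 17 alternative analyses.

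Of the pathway's feedback genes, AMOTL2 was lower with both siRNAs at 48 h. AMOTL2 (ENSG00000114019, chromosome 3, 134355347 to 134375479) encodes an angiomotin-like protein that holds YAP1 at junctions and in the cytoplasm. At 24 h it had 95.7 and 93.7 CPM with siNT1 and 96.7 and 94.6 CPM with siGGGGGC, and these groups overlapped. A day later AMOTL2 had 163 and 146 CPM with siNT1, 59.7 and 70.6 CPM with siGGCAGU, and 101 and 111 CPM with siGGGGGC. The 3 groups at 48 h did not overlap, with siNT1 highest and siGGCAGU lowest. The log2 fold change was -1.24 with siGGCAGU (standard error 0.0984) and -0.54 with siGGGGGC (standard error 0.0966) against the same siNT1 libraries. In siNT1 itself AMOTL2 was higher at 48 h than at 24 h, by a log2 difference of 0.70, so the siGGGGGC libraries of 48 h lay between the control levels of both times.

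AJUBA (ENSG00000129474, chromosome 14, 22971177 to 22982551), a LIM protein that binds LATS kinases and restrains them, was higher with each siRNA. It had 56.0 and 59.7 CPM with siNT1 and 98.7 and 93.2 CPM with siGGGGGC at 24 h. At 48 h the values were 65.5 and 65.1 CPM with siNT1, 115 and 118 CPM with siGGCAGU, and 87.5 and 92.9 CPM with siGGGGGC. No groups overlapped, although siGGGGGC at 48 h and at 24 h were separated by less than the spread within either. The log2 fold changes against siNT1 were 0.73 (standard error 0.0844) and 0.47 (standard error 0.0825) with siGGGGGC at 24 and 48 h, and 0.84 (standard error 0.0824) with siGGCAGU.

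LATS2 (ENSG00000150457, chromosome 13, 20973036 to 21061586), the kinase that phosphorylates YAP1 and TAZ, varied between wells at 48 h. At 24 h it had 27.4 and 28.8 CPM with siNT1 and 23.8 and 22.5 CPM with siGGGGGC. The LATS2 levels of 48 h were 42.6 and 31.9 CPM with siNT1, 37.4 and 51.3 CPM with siGGCAGU, and 44.7 and 42.6 CPM with siGGGGGC. The siGGGGGC libraries were lower than siNT1 at 24 h (log2 fold change -0.28, standard error 0.152). At 48 h the siGGCAGU libraries overlapped both other groups, and siGGGGGC lay just above siNT1 (0.23, standard error 0.14).

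**Figure D2:**
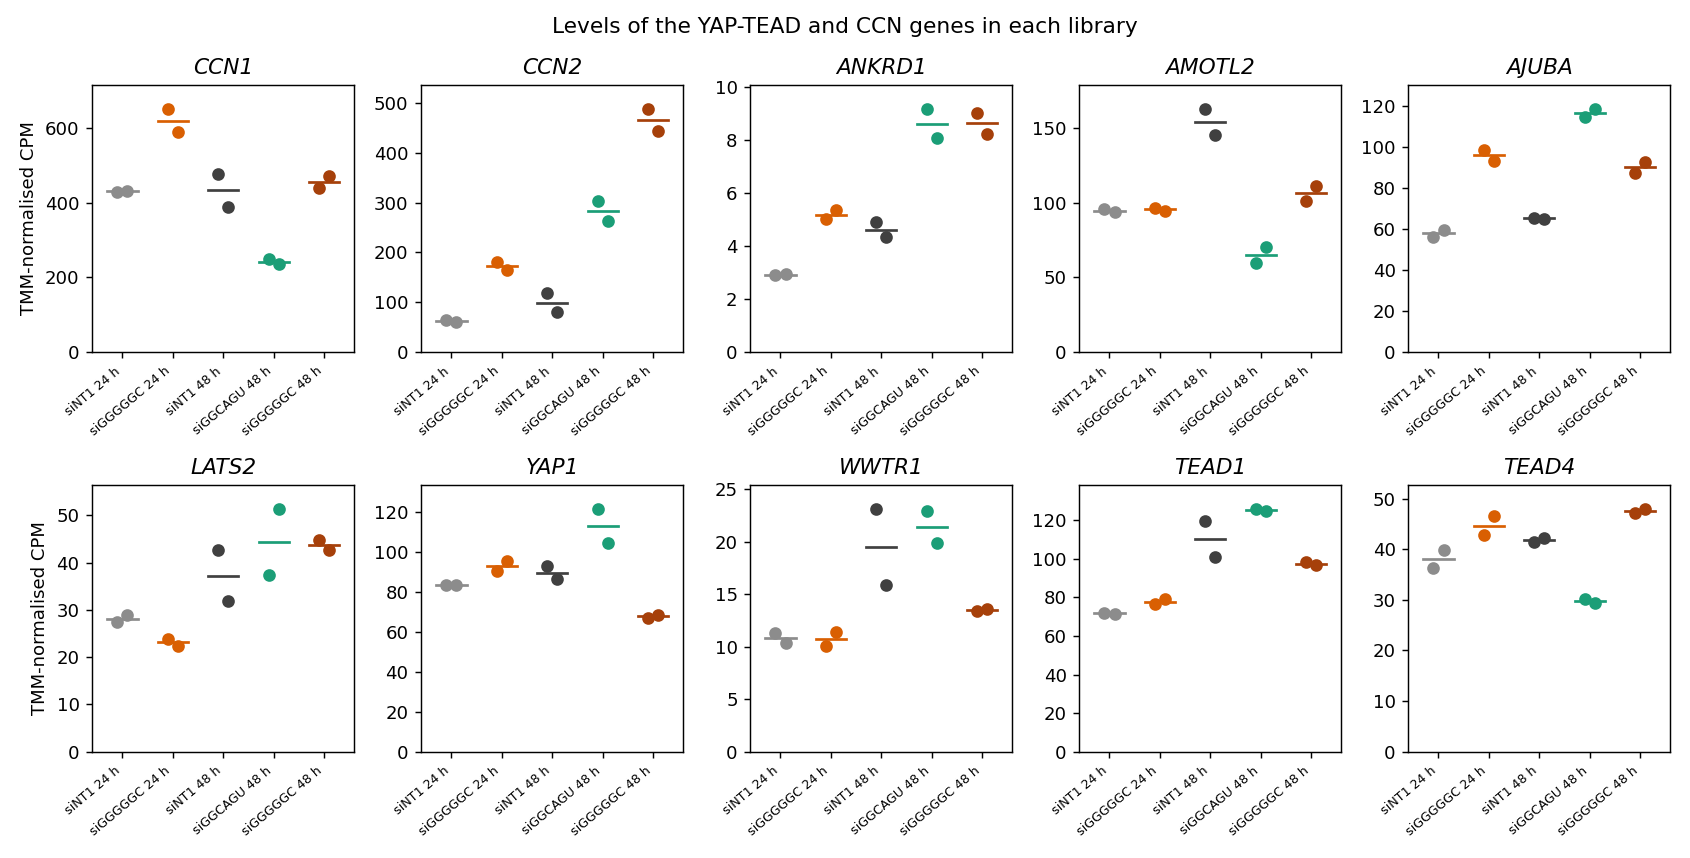
Each panel plots 1 gene, with a point for each library in TMM-normalised CPM on an axis that starts at 0 and a line at the mean of the 2 libraries of a group. CCN2 is highest with siGGGGGC at 48 h (445 and 488 CPM), whereas CCN1, AMOTL2 and TEAD4 are lowest with siGGCAGU and YAP1 is lowest with siGGGGGC at 48 h (67.2 and 68.6 CPM).

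Of the coactivators, YAP1 lay above siNT1 with siGGCAGU and below it with siGGGGGC at 48 h. YAP1 (ENSG00000137693, chromosome 11, 102110447 to 102233424) had 83.7 and 83.4 CPM with siNT1 and 90.2 and 95.4 CPM with siGGGGGC at 24 h. The YAP1 levels of 48 h were 93.0 and 86.2 CPM with siNT1, 122 and 105 CPM with siGGCAGU, and 67.2 and 68.6 CPM with siGGGGGC. At 48 h the 3 groups did not overlap, with siGGCAGU above and siGGGGGC below siNT1. The log2 fold changes were 0.33 with siGGCAGU (standard error 0.0897), -0.40 with siGGGGGC (standard error 0.0906) and -0.74 between siGGGGGC and siGGCAGU (standard error 0.0911). At 24 h the value with siGGGGGC was 0.15.

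WWTR1 (ENSG00000018408, chromosome 3, 149517235 to 149736714), the gene of TAZ, had 11.3 and 10.4 CPM with siNT1 and 10.1 and 11.4 CPM with siGGGGGC at 24 h. The WWTR1 levels of 48 h were 23.1 and 15.9 CPM with siNT1, 23.0 and 19.9 CPM with siGGCAGU, and 13.4 and 13.6 CPM with siGGGGGC. The groups of 24 h overlapped, as did siNT1 and siGGCAGU at 48 h, and siGGGGGC at 48 h lay below both. Its log2 fold change with siGGGGGC at 48 h was -0.53 (standard error 0.149), and -0.25 without siNT1 replicate 1. Per length, YAP1 exceeded WWTR1 in every library, by 5.32- to 11.9-fold with all annotated exons as the length. With the longest transcript as the length the lead was smaller, with mean RPKM of 16.6 and 3.02 in place of 14.2 and 1.82.

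At 48 h TEAD1 and TEAD4 differed from siNT1 in opposite directions with each siRNA, while at 24 h both were higher with siGGGGGC. All of these differences were small but the fall of TEAD4 with siGGCAGU. TEAD1 (ENSG00000187079, chromosome 11, 12674421 to 12944737) had 72.1 and 71.4 CPM with siNT1 and 76.4 and 79.1 CPM with siGGGGGC at 24 h. At 48 h it had 119.6 and 101 CPM with siNT1, 126 and 125 CPM with siGGCAGU, and 98.3 and 96.9 CPM with siGGGGGC. The groups did not overlap, and the libraries of 48 h all lay above those of 24 h. The log2 fold changes against siNT1 were 0.12 with siGGGGGC at 24 h, -0.18 with siGGGGGC at 48 h and 0.19 with siGGCAGU, all small beside the 0.62 between siNT1 at 48 h and at 24 h. TEAD4 (ENSG00000197905, chromosome 12, 2959330 to 3040676) had 36.2 and 39.9 CPM with siNT1 and 42.8 and 46.5 CPM with siGGGGGC at 24 h. The TEAD4 levels of 48 h were 41.4 and 42.1 CPM with siNT1, 30.3 and 29.4 CPM with siGGCAGU, and 47.2 and 47.9 CPM with siGGGGGC. The siGGCAGU libraries were the lowest of all, with a log2 fold change of -0.49 (standard error 0.088), and siGGGGGC lay above siGGCAGU by 0.67. With siGGGGGC the log2 fold change of TEAD4 was 0.23 at 24 h (standard error 0.0898) and 0.19 at 48 h (standard error 0.0866). Over the alternative analyses the value of TEAD4 with siGGGGGC at 48 h went down to 0.065. Those of TEAD1 at 48 h came as near 0 as -0.06 with siGGGGGC and 0.063 with siGGCAGU.

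With TEAD2 and TEAD3 added, the makeup of the family could be compared per length. TEAD4 took 55.1% and 58.6% of the summed RPKM with siNT1 at 48 h, 45.8% and 45.6% with siGGCAGU, and 66.1% and 67.2% with siGGGGGC. TEAD1 took 33.8% and 29.9%, 40.5% and 41.1%, and 29.3% and 28.9% in the same order. TEAD2 took 8.07% and 8.39% with siNT1, 11.5% and 10.4% with siGGCAGU, and 1.2% and 1.58% with siGGGGGC. The sum of the 4 genes lay between 26.4 and 33.1 RPKM in all libraries. TEAD2 was no member of the 10 genes and fell with siGGGGGC at 48 h from 7.96 and 7.89 to 1.12 and 1.48 CPM (log2 fold change -2.60, standard error 0.17, adjusted p = 7.67e-09, edgeR's quasi-likelihood test with Benjamini-Hochberg adjustment over all genes). Its fall at 48 h exceeded that at 24 h by -1.82 (adjusted p = 4.28e-05, edgeR interaction term).

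**Figure D3:**
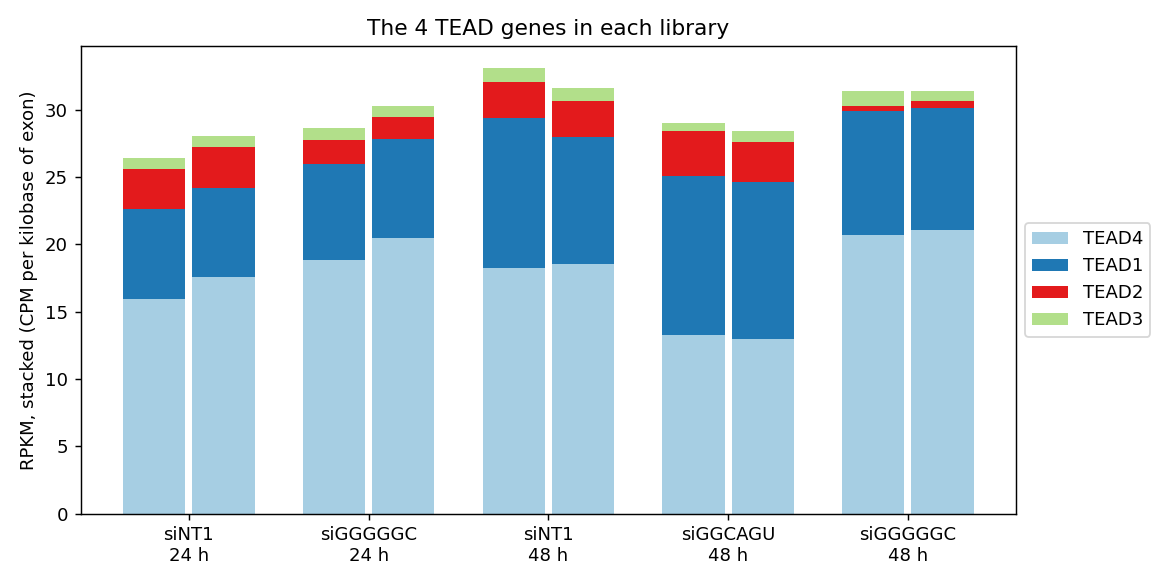
Stacked bars show the RPKM of TEAD4, TEAD1, TEAD2 and TEAD3 in each of the 10 libraries, 2 bars for each group. The summed height stays between 26.4 and 33.1 RPKM, whereas the TEAD2 segment is 1.2% and 1.58% of the bar with siGGGGGC at 48 h and 5.43% to 11.5% elsewhere.

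Over the 10 libraries the mean RPKM ranked CCN1 (118) and CCN2 (92.7) far above TEAD4 (17.7), AMOTL2 (15.9), AJUBA (14.5) and YAP1 (14.2), followed by TEAD1 (9.02), LATS2 (6.29), ANKRD1 (3.34) and WWTR1 (1.82). With the longest transcript as the length the order was the same, although WWTR1 came to 3.02 and CCN1 to 141.5. In siNT1 itself 3 further genes besides AMOTL2 and TEAD1 were higher at 48 h than at 24 h by a log2 difference above 0.6: CCN2 (0.68), ANKRD1 (0.66) and WWTR1 (0.84). Each siRNA is therefore given against siNT1 of its own time.

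By the rule used for all genes, an adjusted p below 0.05 and a log2 fold change beyond 1, CCN2 was called higher in each comparison with siNT1, the single member called at 24 h and at 48 h with siGGGGGC. AMOTL2 was called lower with siGGCAGU. Of all 16905 genes tested, 1.55% were called higher and 2.17% lower with siGGGGGC at 24 h, 10.5% and 11% with siGGGGGC at 48 h, and 10.7% and 9.62% with siGGCAGU. Between siGGGGGC and siGGCAGU at 48 h the shares of all genes were 10.1% higher and 12.8% lower, in the interaction of siGGGGGC with time 4.83% and 6.36%, and in siNT1 over time 1.06% and 0.461%. Nothing is read from these counts of members, or from the medians that follow, because the genes were listed with these values in view. The median log2 fold change of the 10 genes was 0.19 with siGGGGGC at 24 h, 0.13 with siGGGGGC at 48 h and 0.22 with siGGCAGU, beside medians of all genes of 0.0035, -0.011 and 0.024.

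**Figure D4:**
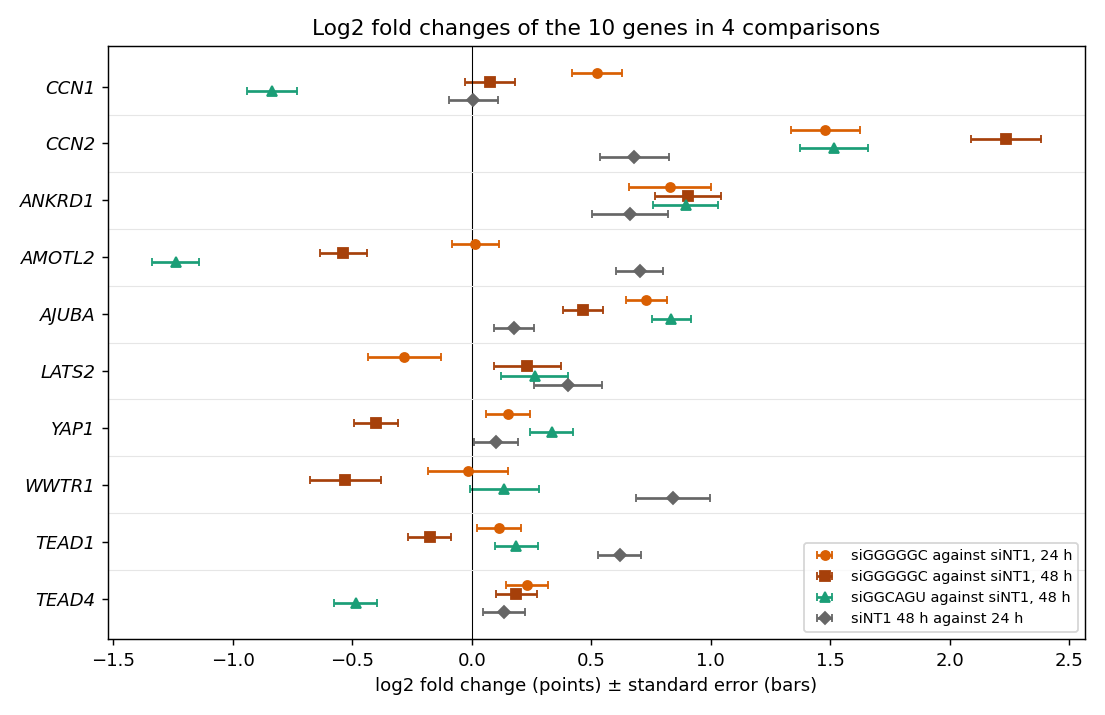
Points show the log2 fold change of each of the 10 genes in 4 comparisons and bars its standard error. CCN2 lies farthest to the right (1.48, 2.24 and 1.52 against siNT1), AMOTL2 farthest to the left (-1.24 with siGGCAGU), and CCN1 has values on both sides of 0.

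Whether other genes of the pathway shifted with the readouts was examined in 45 further genes, of which 40 were tested. They were chosen with earlier results of these data known, and the test was that of all genes. Of the 4 other CCN genes, CCN5 and CCN6 had at most 12 counts in a library and were not tested. CCN3 (also called NOV), a CCN protein with growth-restraining roles, fell with siGGGGGC from 13.1 and 15.8 to 5.28 and 4.62 CPM at 24 h (log2 fold change -1.55, adjusted p = 9.14e-06, edgeR) and from 12.9 and 12.6 to 1.72 and 1.67 CPM at 48 h (-2.90, adjusted p = 3.3e-09, edgeR). CCN4 (WISP1), a WNT-induced CCN protein, had 0 counts in both siNT1 libraries of 48 h, 13 and 12 counts with siGGGGGC and 1 and 6 counts with siGGCAGU. Against a floor of 3 counts over the control group it was at least 14-fold higher with siGGGGGC and at least 3.4-fold higher with siGGCAGU. The call with siGGCAGU (adjusted p = 0.0097, edgeR) was lost without siGGCAGU replicate 2 or without siNT1 replicate 2. CCN4 had 0.559 and 0.478 CPM with siGGGGGC at 48 h and at most 0.172 CPM in any other library. It therefore passed the filter on low counts only through the group where it was highest, and its calls are given as a description.

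The largest calls among 17 other target genes were as follows. AXL, a receptor tyrosine kinase, fell in all 3 comparisons with siNT1. It had 280 and 277 CPM with siNT1 and 138 and 137 CPM with siGGGGGC at 24 h (log2 fold change -1.02, adjusted p = 1.07e-05, edgeR). At 48 h it had 371 and 339.8 CPM with siNT1, 179 and 143 CPM with siGGCAGU (-1.14) and 44.1 and 49.8 CPM with siGGGGGC (-2.92, adjusted p = 3.71e-11, edgeR). F3, tissue factor, fell with siGGGGGC at both times (-1.03 and -1.38) and rose with siGGCAGU (1.32, adjusted p = 2.79e-09, edgeR). It had 127 and 132 CPM with siNT1, 50.1 and 49.3 CPM with siGGGGGC and 327 and 318 CPM with siGGCAGU at 48 h, 3 groups far apart. TGFB2, a transforming growth factor beta ligand, had 0.239 and 0.419 CPM with siNT1, 0.86 and 0.837 CPM with siGGGGGC and 11.5 and 11.3 CPM with siGGCAGU, and its rise with siGGCAGU was 5.05 on the log2 scale (adjusted p = 1.09e-10, edgeR).

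CCDC80, a secreted matrix protein, fell with siGGGGGC at 48 h from 1936 and 2034 to 359 and 345 CPM (-2.50, adjusted p = 4.19e-11, edgeR), and with siGGCAGU it had 1660 and 1824 CPM (-0.19, adjusted p = 0.106, edgeR). IGFBP3, which binds insulin-like growth factors, fell with both siRNAs at 48 h, from 1166 and 1153 CPM to 258 and 229 CPM with siGGCAGU (-2.25, adjusted p = 7.51e-11, edgeR) and to 408 and 419.9 CPM with siGGGGGC (-1.49). NUAK2, a kinase of the AMPK family, rose with siGGGGGC at 24 h from 0.23 and 0.403 to 1.67 and 1.32 CPM (2.24, adjusted p = 0.000911, edgeR) and at 48 h from 1.46 and 1.04 to 4.99 and 5.70 CPM (2.12, adjusted p = 6.53e-07, edgeR). The median log2 fold change of the 17 targets was -0.46 with siGGGGGC and 0.082 with siGGCAGU at 48 h. With siGGGGGC at 48 h, 5 of the 17 were called lower (AXL, CCDC80, IGFBP3, RBMS3 and F3) and 3 higher (NUAK2, TGFB2 and GADD45A), where 11% of all genes were called lower and 10.5% higher. With siGGCAGU 3 were called lower (IGFBP3, FOXF2 and AXL) and 2 higher (TGFB2 and F3), where the shares of all genes were 9.62% and 10.7%. FOXF2, a forkhead factor, fell with siGGCAGU from 1.97 and 1.85 to 0.805 and 0.802 CPM (-1.24, adjusted p = 0.000506, edgeR). TGFB2 with siGGGGGC was at 1.31 (adjusted p = 0.00333, edgeR), and without siNT1 replicate 1 it was at 0.9988, just under the cutoff.

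**Figure D5:**
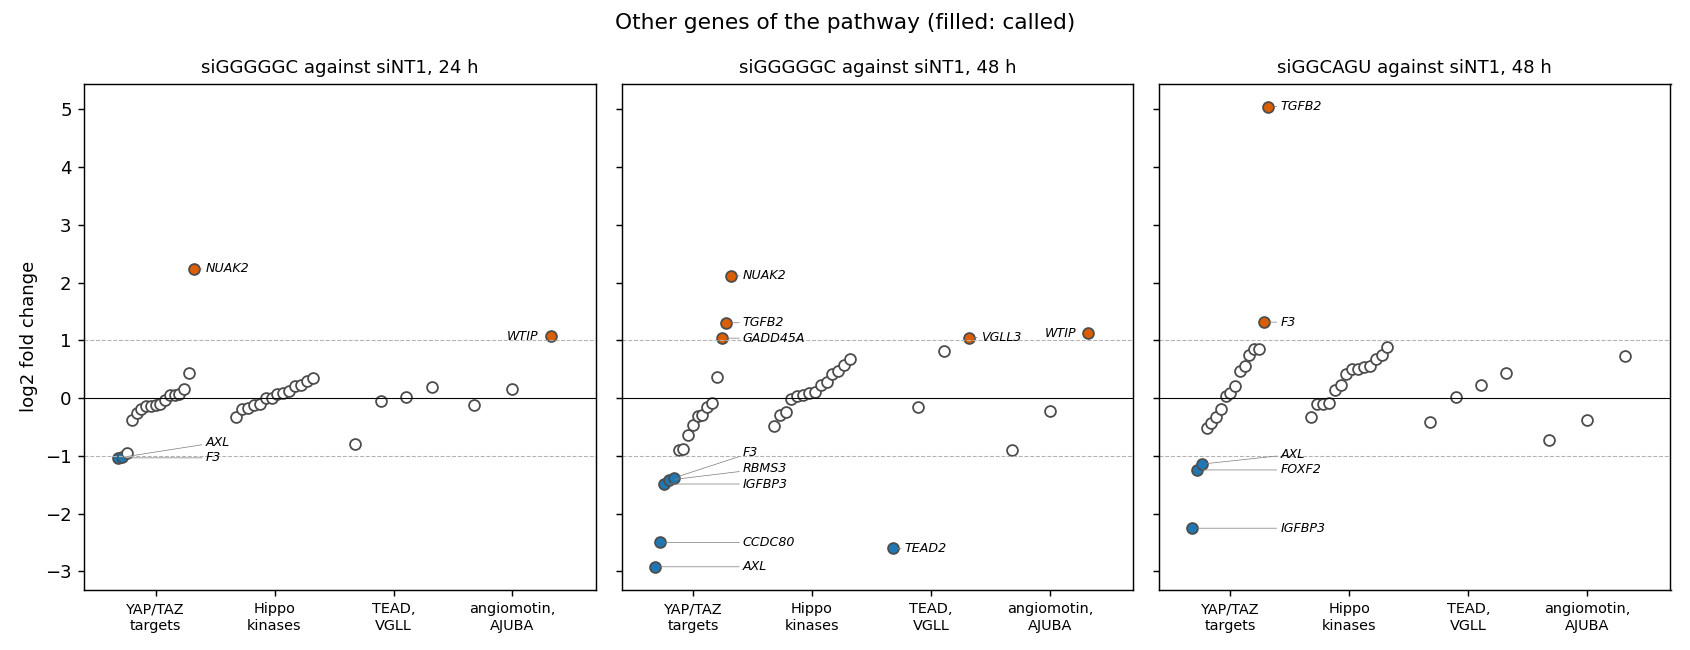
Each point is a gene of a pathway list in 1 of 3 comparisons with siNT1, placed at its log2 fold change and ordered within its list, with called genes filled (orange higher, blue lower) and dashed lines at 1 and -1. The other CCN genes are left out because CCN4 had 0 counts in the control group. AXL is filled in all 3 panels, and TGFB2 with siGGCAGU (5.05) is the highest point.

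The kinases and scaffolds of the Hippo pathway were mostly within a log2 fold change of 1. With siGGCAGU, 8 of 14 had an adjusted p below 0.05 and were higher (STK3, SAV1, MOB1A, NF2, WWC2, FRMD6, TAOK1 and TAOK3) and 1 was lower (STK4), where 27.8% and 24.9% of all genes passed in these directions. SAV1, the scaffold of the MST kinases, rose from 22.3 and 21.2 to 33.0 and 39.8 CPM (0.75, adjusted p = 1.49e-05, edgeR), and with siGGGGGC at 48 h it rose to 33.2 and 36.1 CPM (0.67, adjusted p = 4.58e-05, edgeR). With siGGCAGU, STK3 rose from 37.4 and 38.1 to 58.4 and 51.4 CPM (0.54, adjusted p = 0.000129, edgeR). The median of the 14 was 0.46 with siGGCAGU and 0.10 with siGGGGGC at 48 h. NF2, the upstream scaffold merlin, was higher with siGGCAGU than with siGGGGGC, and the difference of -1.03 (adjusted p = 2.92e-06, edgeR) was near the cutoff, at -0.91 without siGGCAGU replicate 1. With siGGGGGC, 5 of the 14 passed as higher and 3 as lower at 48 h, against 27.8% and 27.5% of all genes, and 2 and 1 at 24 h, against 10.6% and 8.32%.

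VGLL3, a TEAD cofactor, rose with siGGGGGC at 48 h from 33.4 and 30.3 to 68.5 and 62.9 CPM (1.05, adjusted p = 8.94e-07, edgeR), with 35.7 and 28.8 CPM with siGGCAGU. Its log2 fold change was under the cutoff, at 0.97, without siNT1 replicate 2, and at 0.979 without siGGGGGC replicate 1. WTIP, a relative of AJUBA, rose with siGGGGGC at 24 h (1.08, adjusted p = 4.17e-05, edgeR) and at 48 h (1.12, adjusted p = 9.33e-07, edgeR). Of the 40 genes 2 were called higher and 3 lower with siGGGGGC at 24 h (1.55% and 2.17% of all genes), 6 and 7 with siGGGGGC at 48 h (10.5% and 11%), and 3 and 3 with siGGCAGU (10.7% and 9.62%). The genes called higher at 48 h include CCN4 with each siRNA.

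The genes whose log2 CPM ran most like 4 of the members over the 10 libraries were searched among 7576 genes of at least 10 CPM on average. The closest to CCN2 were SMAD3, a transcription factor of TGF-beta signalling (Pearson r = 0.987), BCL10 (0.984) and RC3H2 (0.983). For ANKRD1 they were GSN (0.986), ZNF778 (0.983) and SEC14L1 (0.979), for YAP1 TRAPPC12 (0.977), MARCKS (0.971) and B4GALT7 (0.970), and for CCN1 ENO2 (0.988) and the histone genes H2BC26 and H3C13, whose near-identical copies make their counts uncertain. The 10 libraries fall into 5 groups and share their scaling, and the highest of so many values is high in any search, so these are descriptions.

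Some of the genes share exonic bases with others, and the strand setting of the counting was not given in the sources used here. CCN2 overlaps LINC01013 on the opposite strand by 278 bases, with at most 15 counts for that gene in a library, and WWTR1 overlaps WWTR1-AS1 by 756 bases, with 12 to 37 counts. AMOTL2 shares 187 bases with the pseudogene RPL39P5 (1 to 10 counts).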

How the data were processed

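RNA-seq libraries were paired-end and made from ribosomal-depleted total RNA of fragments above 140 nt. Per the labels and methods, the authors trimmed reads with Trimmomatic, aligned them to hg38 with TopHat or STAR (the submitters' processing notes list TopHat with Bowtie2 and do not list STAR) and counted them per Ensembl gene with HTSeq. The deposited counts are raw whole numbers, with 0 entries that name no gene. The authors' deposited tables of their own comparisons hold fold changes and p-values and were not used. Counts were tested with edgeR 4.0.16 (R 4.3.3), by the quasi-likelihood F test with TMM scaling and filterByExpr, in 1 fit of 10 libraries and 5 groups with 5 residual degrees of freedom. The Benjamini-Hochberg adjustment covered 16905 genes, and a gene was called at an adjusted p below 0.05 and a log2 fold change beyond 1. RPKM used the union of GENCODE 44 exons. The floor used for CCN4 covers counting error only. Standard errors are the size of the log2 fold change divided by the square root of the quasi-likelihood F, which includes the spread between libraries. Names were given to all 10 members, the 2 largest calls each way per list and comparison, a few further genes chosen after their values were seen (SAV1, STK3, IGFBP3, F3, RBMS3 and GADD45A in comparisons where they did not rank), and the 3 closest genes in log2 CPM with a prior count of 2. The members and lists were chosen with earlier results of these data known.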

Additional observations from a re-analysis of the deposited data

Results flagged for a closer look

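The effect of siGGGGGC against siNT1 was called as different between 48 h and 24 h for 7 of the 40 other pathway genes tested, by the interaction term of edgeR with Benjamini-Hochberg adjustment over all genes. The difference of the log2 fold changes, 48 h minus 24 h, was -2.12 for CCDC80 (adjusted p = 8.64e-08), -1.90 for AXL (adjusted p = 5.28e-07), -1.82 for TEAD2 (adjusted p = 4.28e-05), -1.54 for IGFBP3 (adjusted p = 8.92e-07) and -1.35 for CCN3 (adjusted p = 0.000738). It was 1.09 for VGLL3 (adjusted p = 0.000134) and 1.07 for GADD45A (adjusted p = 0.000345). The last 2 fell under the fold cutoff, at 0.956 and 0.936, without the filter on low counts. They also fell under it when a library was left out, VGLL3 at 0.985 without siGGGGGC replicate 1 at 24 h, and GADD45A at 0.956 without siGGGGGC replicate 2 at 24 h and at 0.974 without siNT1 replicate 1 at 48 h. Of all genes, 4.83% were called higher and 6.36% lower in this interaction.

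For 3 members both siGGGGGC libraries lay on one side of both siNT1 libraries at 24 h and on the other side at 48 h, and the differences were not tested. They were 0.51 for LATS2, -0.55 for YAP1 and -0.29 for TEAD1 on the log2 scale. How many of all genes changed sides in this way was not counted, so nothing is read from the count of members. For LATS2 at 48 h the nearest libraries were almost equal, at 42.64 CPM with siGGGGGC and 42.6 CPM with siNT1. Its log2 fold change at 48 h lay between 0.028 and 0.44 over the alternative analyses.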

How the results depend on the processing

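Each value was recomputed with other scaling, filters, DESeq2, the compared groups alone and each library left out. Nothing is read from the counts of members called, since the members were chosen by their counts. Leaving out a library gave 0 to 1 members called for the interaction (CCN2 at 1.05 without siNT1 replicate 1 at 48 h) and 0 to 1 for siNT1 over time (WWTR1 at 1.10 without siNT1 replicate 2 at 48 h). Of the other pathway genes it gave 5 to 5 calls at 24 h and 11 to 15 at 48 h with siGGGGGC, 4 to 7 with siGGCAGU, 10 to 13 between both siRNAs, 6 to 8 for the interaction and 0 to 1 for siNT1 over time, where NUAK2 was lost without siNT1 replicate 1 at 24 h (1.60, adjusted p = 0.068, edgeR). CCN4, VGLL3, GADD45A, NF2 and TGFB2 lost a call in at least 1 alternative. Signs changed only for values near 0. In the shortest 3′ UTRs, 1 member held the siGGGGGC match, 3 the siGGCAGU match and 0 the siNT1 match. With ACATTCC, 3 members held the TEAD letters. The tools differed over all genes, with 629 calls at 24 h in edgeR and 409 in DESeq2, and 258 and 147 for siNT1 over time. RLE factors, leaving out RN7SL2 and SNORD3A, DESeq2 and a replicate block moved the median of all genes by no more than -0.0314 in size. This median was not computed without the filter on low counts, which moved values more. With siGGGGGC at 48 h that setting gave -3.04 beside -2.92 for AXL and -0.52 beside -0.40 for YAP1. It gave 0.78 beside 0.90 for ANKRD1 and 0.065 beside 0.19 for TEAD4.

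The replicate numbers did not mark a shared batch in the labels, and the deviations of same-numbered libraries correlated between -0.233 and 0.0914. With the replicate number as a block, 593 genes were called at 24 h, 3601 at 48 h with siGGGGGC and 3399 with siGGCAGU, beside 629, 3636 and 3430 without the block. At this depth, values of a few counts, as for CCN4, are limited by counting error.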
